A study of Homo sapiens with 8 samples.

Results

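The heat shock proteins and their DNAJ partners form the cytosolic, mitochondrial and endoplasmic reticulum (ER) chaperone network, and 60 genes of it were followed here in human osteosarcoma cells given a miR-101-3p mimic. They are the genes whose symbols begin with DNAJA, DNAJB, DNAJC, HSPA, HSPB or HSP90A, with HSPH1, HSPD1, HSPE1, HSF1, HSF2 and BAG1 to BAG5 added. HSPA5, 12 pseudogenes and 2 antisense genes were set aside. The count table held 15982 genes, 15905 of them had enough reads to be tested, and all 60 chaperone genes were among these. The inducible HSP70 genes HSPA1A, HSPA1B and HSPA6 and the mitochondrial DNAJA3 were not analysed here.

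The study asked how miR-101-3p acts on mitochondrial metabolism. All libraries came from 143BTK-, 1 established human osteosarcoma line that lacks thymidine kinase, kept without glucose in 10 mM galactose and 5% dialysed serum, also containing uridine. Cells received 80 pmol of either a synthetic miR-101-3p mimic or a scrambled negative control mimic, a second dose followed at 48 h, and RNA was taken at 120 h. Each group held 4 libraries from separate transfection experiments. A mimic raises the level of the miRNA above that of the untreated cell, and no untreated cells are among the 8 libraries.

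HSP70 proteins bind exposed stretches of unfolded proteins in a cycle driven by ATP. J proteins (the DNAJA, DNAJB and DNAJC classes) bring clients and stimulate ATP hydrolysis, while BAG proteins and the HSP110 family promote release of ADP and so of the client. HSP90 acts later, on kinases, receptors and other nearly folded clients, and small HSPs hold unfolded proteins without ATP. HSF1 is the transcription factor that switches on many of these genes when unfolded proteins accumulate, by binding heat shock elements, inverted repeats of GAA and TTC units.

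BAG3 and DNAJB1 fell after miR-101, and no other gene of the 60 passed the test in either direction. BAG3 was 1.64-fold lower and DNAJB1 1.47-fold lower, and for each gene the 4 miR-101 libraries lay below all 4 controls. The edgeR quasi-likelihood test, adjusted over all genes, thus called 2 of 60 (3.33%), beside 6.62% of all genes tested. In the lower direction it called 3.32% of all genes. At an unadjusted p under 0.05 there were 7 of 60 chaperone genes (11.7%), of which 5 were higher and 2 lower, against 22.3% of all genes. Groups did not overlap for 7 of 60, 4 higher and 3 lower, against 15.1% of all genes.

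Across the 60 genes the log2 fold change of miR-101 over control ran from -0.71 to 0.53, and 48 of them lay within 0.25 of 0 on either side. The median was -0.01 for the chaperone genes and -0.01 for all genes tested. Of the 60, 29 had a positive and 31 a negative value. The plot of fold changes by class shows this spread.

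**Figure D1:**
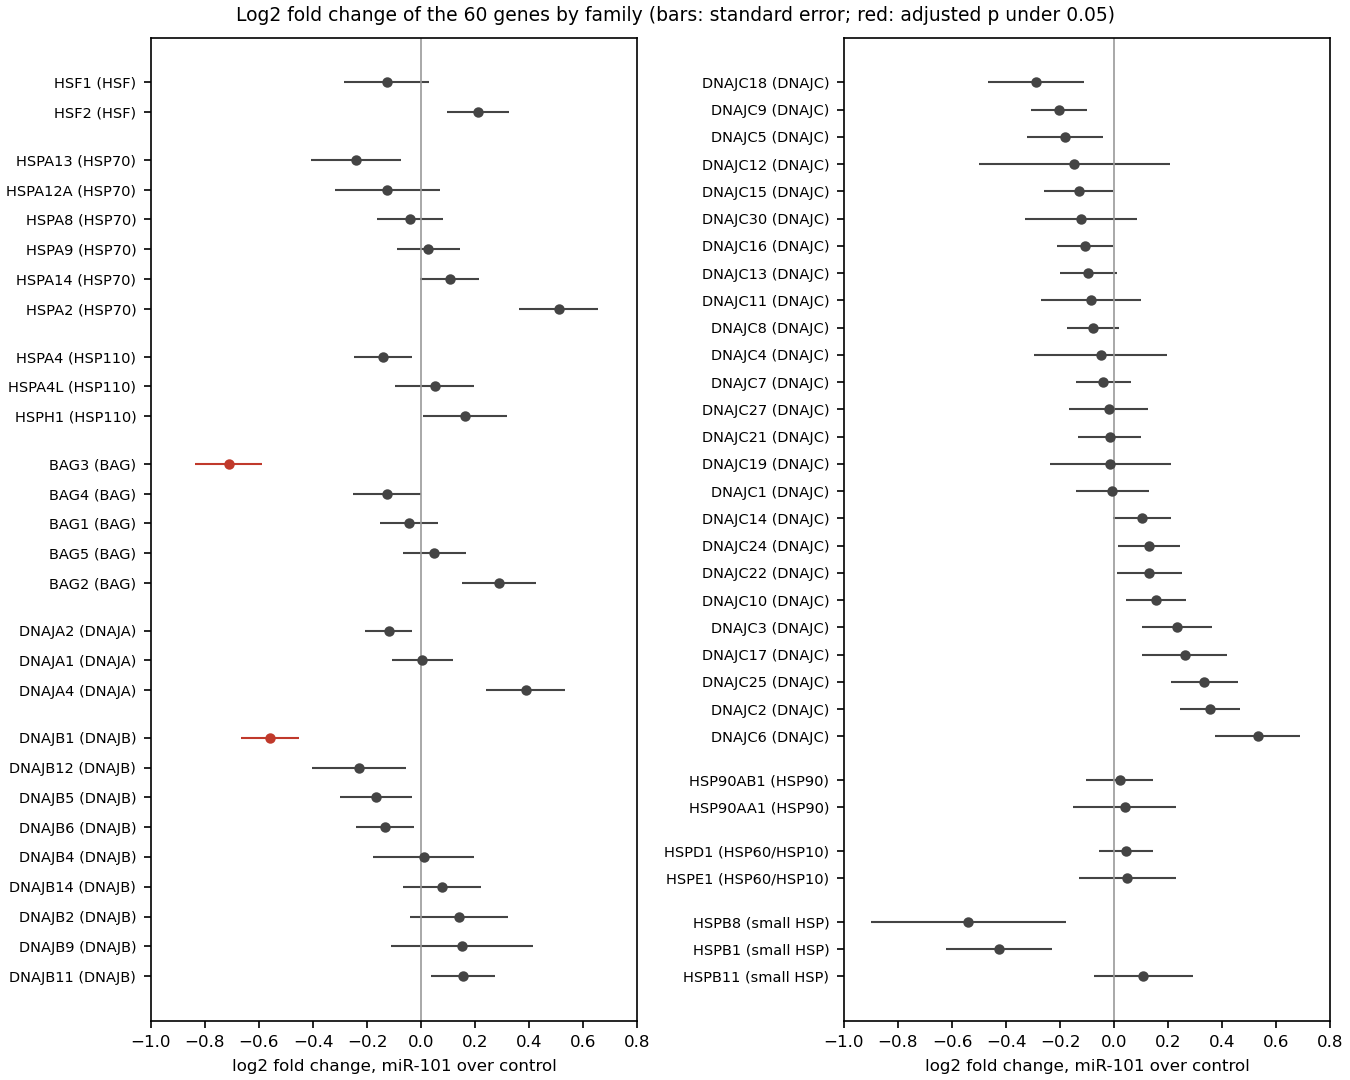
Log2 fold change of miR-101 over control (horizontal axis) for each of the 60 genes, grouped by class, with bars of 1 standard error from the edgeR fit. BAG3 and DNAJB1, at -0.71 and -0.56, are the called genes, and the rest scatter on both sides of 0.

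Library totals lay between 17603054 and 20160267 counts, and levels are given as CPM, counts scaled to a common library size after TMM normalisation. Replicates 1 and 2 of each group were closer to each other than any other pair: the variance between them was 2.83 and 3.02 times that of counting alone, against 7.88 to 45.3 for the other pairs of a group. They differed by more than sampling noise, which does not show that they came from separate transfections. They were kept as separate samples because the labels describe separate transfection experiments. Values with replicates 1 and 2 summed or with either pair alone are given for the called genes. Replicates 1 and 2 alone called 32.4% of all genes, and replicates 3 and 4 alone called 6 genes. An adjusted p from replicates 1 and 2 alone rests on the small spread between them, not on that among all 4 libraries of a group. The described miR-101 target EZH2 fell from 45.7 ± 5.12 to 28.1 ± 2.09 CPM (SD, n = 4), a log2 fold change of -0.70 ± 0.114 (SE, edgeR adjusted p = 0.00561). With replicates 1 and 2 summed it was -0.67 (edgeR adjusted p = 0.0809), and it was -0.82 in replicates 1 and 2 alone and -0.59 in replicates 3 and 4 alone (edgeR adjusted p = 4.08e-13 and 0.565). Mesenchymal markers VIM and SPARC averaged 668.5 and 564 CPM in the controls, 4 of 7 markers of that lineage were in the table (summed 965 to 1455 CPM in controls and 943 to 1975 after miR-101), and the osteoblast genes ALPL and BGLAP were not. The other markers of the list in the table were low, RUNX2 at 13.4 CPM in controls and 25.4 after miR-101 and COL1A1 at 6.29 and 13.5. Summed markers of blood and endothelium ran from 2.06 to 6.84 CPM in controls and from 2.38 to 3.90 after miR-101, and those of muscle and nerve from 4.47 to 9.13 and from 5.15 to 7.42. The epithelial list had 1 of 4 markers in the table, EPCAM, at 5.11 to 10.0 CPM in controls and 9.30 to 17.0 after miR-101. The part of other cell types in the results was not tested.

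BAG3 is an exchange factor for HSP70 that also steers damaged proteins to selective autophagy together with HSPB8, and it is a well known HSF1 target. It lies on chromosome 10 of GRCh38 at chr10:119651370-119677819 on the plus strand. The 4 controls stood at 15.9, 14.9, 14.96 and 14.5 CPM, and the miR-101 libraries at 10.5, 9.20, 9.01 and 8.07 CPM. The highest miR-101 library was below the lowest control, and the controls spanned a narrow range. The means were 15.1 ± 0.599 and 9.20 ± 1.01 CPM (SD, n = 4), with a log2 fold change of -0.71 ± 0.124 (SE, edgeR adjusted p = 0.00758). BAG3 kept its call in 8 of 8 fits that each left out 1 library, with adjusted p from 0.00708 to 0.0346. With replicates 1 and 2 summed to 1 sample the log2 fold change was -0.74 and edgeR adjusted p = 0.0741, which ends the call. In these bulk cultures less BAG3 RNA per cell and fewer cells that express it cannot be told apart, here as for all genes below. The value was -0.65 in replicates 1 and 2 alone and -0.79 in replicates 3 and 4 alone (edgeR adjusted p = 1.26e-05 and 0.443). The fit to replicates 1 and 2 alone called 32.4% of all genes.

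DNAJB1 is the classic heat-inducible J protein of the cytosol and nucleus, a partner of HSP70 in refolding and in taking aggregates apart. It lies at chr19:14514770-14529770 on the minus strand. Its controls held 74.3, 75.6, 63.6 and 72.4 CPM and its miR-101 libraries 50.5, 53.1, 48.4 and 42.1 CPM. Groups were again separate, with a mean of 71.5 ± 5.40 in the controls and 48.5 ± 4.68 after miR-101 (CPM, SD, n = 4). The log2 fold change was -0.56 ± 0.106 (SE, edgeR adjusted p = 0.0119), and 8 of 8 fits without 1 library kept the call, at adjusted p from 0.00891 to 0.0445. Summing replicates 1 and 2 gave -0.57 with edgeR adjusted p = 0.104, again without a call. Replicates 1 and 2 alone gave -0.54 and replicates 3 and 4 alone -0.59 (edgeR adjusted p = 4.53e-08 and 0.52). The first of these fits called 32.4% of all genes.

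Exons of DNAJB1 overlap those of TECR on the other strand. Whether counting used the strand is not given in the sources used here, so the DNAJB1 value is uncertain to that extent. TECR itself was at 10.2 ± 1.41 CPM in controls and 8.55 ± 1.54 after miR-101 (log2 fold change -0.26 ± 0.169, SE, edgeR adjusted p = 0.396). BAG3 shares no exon with an annotated gene. In all, 25 of the 60 genes share an exon with a gene on the opposite strand.

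**Figure D2:**
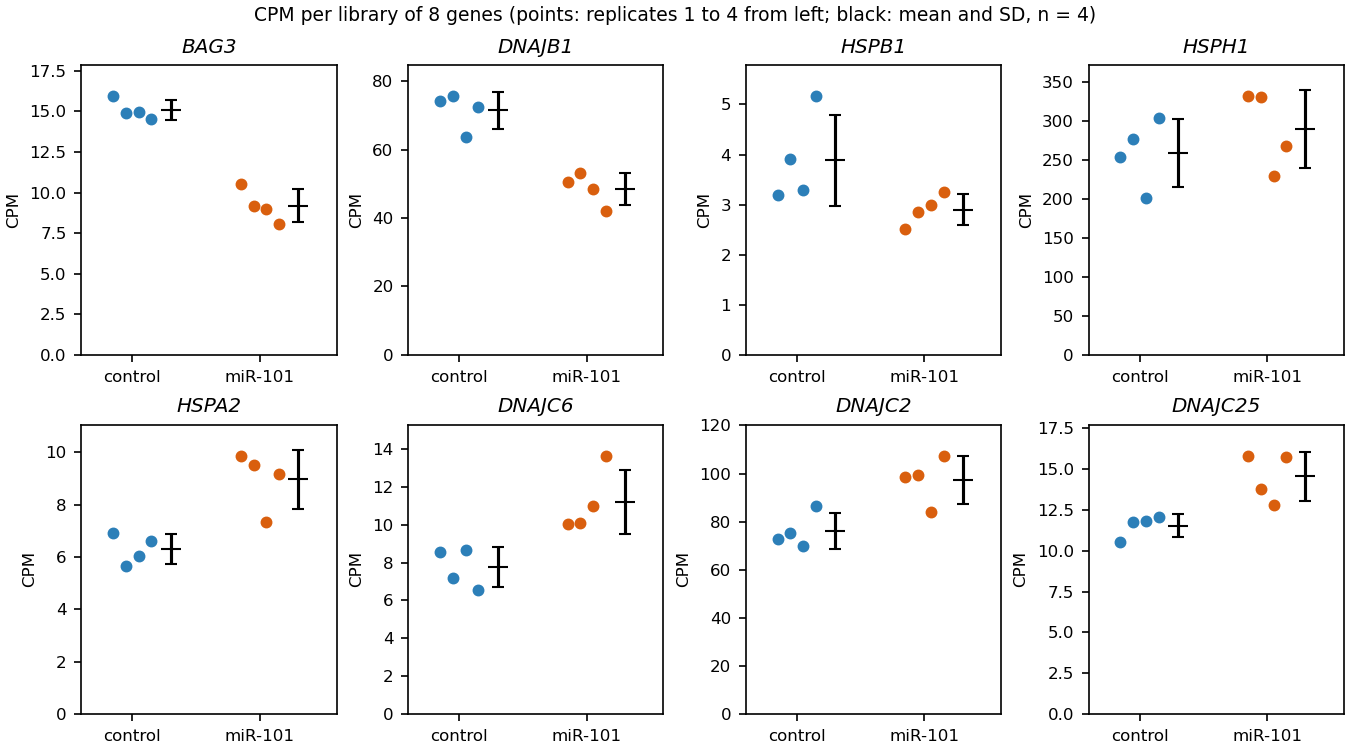
CPM (vertical axes) in each of the 8 libraries for BAG3, DNAJB1, HSPB1, HSPH1, HSPA2, DNAJC6, DNAJC2 and DNAJC25, with points for replicates 1 to 4 from the left and black bars for the mean and SD (n = 4). For BAG3 and DNAJB1 every miR-101 point lies under every control point, from 8.07 to 10.5 against 14.5 to 15.9 CPM for BAG3.

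The miRNA itself and the sites it could pair with are shown next, since a fall of a messenger after a mimic raises the question of a direct match. The mature sequence is from RefSeq (GRCh38.p14, chr9:4850345-4850365, plus strand), with the seed, bases 2 to 8, in capitals.
hsa-miR-101-3p: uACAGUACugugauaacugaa

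A site was a stretch of 3′ untranslated region (UTR) that pairs with the seed, taken from the longest 3′ UTR among the protein-coding transcripts of each gene in GENCODE 29. An 8mer reads GTACTGTA, a 7mer-m8 GTACTGT and a 7mer-A1 TACTGTA. The sites below, on the transcript strand with the match in capitals, are the single 8mer among the 60 genes and 3 of the 7mer sites, from genes with values on both sides of 0.
DNAJC15 8mer, chr13:43107937-43107944: gtcttccaGTACTGTAtattcatt
HSPA13 7mer-m8, chr21:14371276-14371282: atgttttgGTACTGTgttttcac
DNAJC10 7mer-m8, chr2:182780715-182780721: agattcttGTACTGTcactgagt
DNAJC6 7mer-A1, chr1:65413543-65413549: tagcataaTACTGTAaatgtctt

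Neither BAG3, with a 3′ UTR of 537 bases, nor DNAJB1, with 1170 bases, held any of these letters. All 60 genes had an annotated 3′ UTR, and 14 of them (23.3%) held at least 1 site, beside 23.8% of the tested genes with a UTR. DNAJC15, which helps regulate the protein import motor of mitochondria and carries the 8mer shown, had 94.9, 94.2, 75.2 and 114 CPM after miR-101 and 108, 105, 109 and 92.2 in controls. Its groups overlapped (log2 fold change -0.13 ± 0.128, SE, edgeR adjusted p = 0.587). All genes with an 8mer had a median log2 fold change of -0.26.

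The 7 genes with a 7mer-m8 as their strongest site had a median of -0.11, and all genes of that class -0.10. The members are DNAJC18, HSPA13, DNAJC10, DNAJC16, HSPA12A, BAG1 and HSPA4L, with values from -0.29 (DNAJC18) to 0.15 (DNAJC10), and none was called. DNAJC10, the ER reductase ERdj5, has 4 sites in a UTR of 17332 bases and a positive value. HSPA13, a microsomal HSP70-type ATPase, has 2 sites and stood at -0.24 ± 0.165 (SE). The 6 genes with only a 7mer-A1 had a median of 0.16, against 0.00 over all genes of that class, and the 46 without a site a median of -0.00, against -0.01. The highest value among the 7mer-A1 genes was 0.53, for DNAJC6. Counting every annotated UTR of a gene raised the number with a site to 21, and the longest UTR of any transcript type, an alternative added after the data were seen, gave 18. BAG3 and DNAJB1 held no site in any annotated UTR.

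DNAJB1 and BAG3 are both known HSF1 targets, so their start regions were searched for heat shock elements. The element searched was GAANNTTC or TTCNNGAA, which are palindromes and so read the same on both strands, in RefSeq windows from 250 bases before to 50 after a start (GRCh38.p14). A 3-unit element was 2 of these sharing 3 bases, 5 bases apart. The windows of DNAJB1 at chr19:14518348-14518647 and HSPA8 at chr11:123062087-123062386, both on the minus strand, are printed 5′ to 3′ on the gene strand with matches in capitals. They are examples of a called gene and an uncalled one, and both hold matches.
DNAJB1: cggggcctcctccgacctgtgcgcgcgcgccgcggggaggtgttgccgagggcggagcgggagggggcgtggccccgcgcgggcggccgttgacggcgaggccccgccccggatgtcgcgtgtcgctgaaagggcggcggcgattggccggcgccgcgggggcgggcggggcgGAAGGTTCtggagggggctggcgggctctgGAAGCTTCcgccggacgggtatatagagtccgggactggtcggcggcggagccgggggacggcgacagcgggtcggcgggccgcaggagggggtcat
HSPA8: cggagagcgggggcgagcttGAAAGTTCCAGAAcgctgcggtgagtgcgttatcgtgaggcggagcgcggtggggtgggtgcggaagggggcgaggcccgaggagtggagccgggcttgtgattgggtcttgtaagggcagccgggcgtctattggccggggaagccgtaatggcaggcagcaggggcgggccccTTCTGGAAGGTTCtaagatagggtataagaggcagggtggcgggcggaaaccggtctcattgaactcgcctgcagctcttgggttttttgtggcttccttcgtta

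DNAJB1 has matches that begin 77 and 47 bases before the start shown. HSPA8 has 4 matches that form 2 elements of 3 units, and those nearest the start begin 55 and 50 bases before it. Of the other DNAJB1 windows 1 held a match and 1 held none. The BAG3 window held none of these letters, which says nothing of HSF1 at that gene. Among 53 chaperone genes with a window 16 (30.2%) held a match and 6 (11.3%) a 3-unit element. Of all 34961 windows 13.5% held a match and 0.489% a 3-unit element, counted per window, as were 23% and 8.11% of the 74 chaperone windows. The 16 genes with a match had a median log2 fold change of 0.01 with 1 called (DNAJB1), and the 37 without had -0.04 with 1 called (BAG3). The match is a description of the letters and not a measured binding site.

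Neither heat shock factor gene was called. HSF1, the master regulator, had 9.67, 8.05, 9.25 and 12.7 CPM in controls and 9.34, 8.80, 8.47 and 9.75 after miR-101. The groups overlapped, and the log2 fold change was -0.13 ± 0.158 (SE, edgeR adjusted p = 0.677). HSF1 shares exons with DGAT1 on the other strand. HSF2, which can form mixed trimers with HSF1, had 23.8, 19.96, 22.1 and 20.5 CPM in controls and 24.0, 23.2, 24.2 and 28.5 after miR-101, a value of 0.21 ± 0.114 (SE, edgeR adjusted p = 0.31). It was higher in 4 of 4 same-numbered pairs, but by 0.01 in the first of them.

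Of the 12 listed HSF1-inducible genes, 9 were in the table, and edgeR called 2 of these 9, BAG3 and DNAJB1, both lower, beside 6.62% of all genes called and 3.32% called lower. The list's median log2 fold change was 0.00 and 5 of 9 were positive. HSPA8, the constitutive HSC70, stood at -0.04 ± 0.122, HSP90AA1 at 0.04 ± 0.19, DNAJA1 at 0.00 ± 0.113, HSPD1 at 0.04 ± 0.0989 and HSPE1 at 0.05 ± 0.18 (log2, SE). HSPH1, the HSP110 exchange factor, stood at 0.16 ± 0.156 and HSPB1 at -0.43 ± 0.196. The edgeR adjusted p of these 7 ran from 0.231 for HSPB1 to 0.988 for DNAJA1. The genes called within the list are an exchange factor and a J protein, but its other J protein DNAJA1 and exchange factor HSPH1 were not called. Nor were its HSP70, HSP90, chaperonin and small HSP genes. Whether BAG3 and DNAJB1 differ from the rest of the list was not tested.

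**Figure D3:**
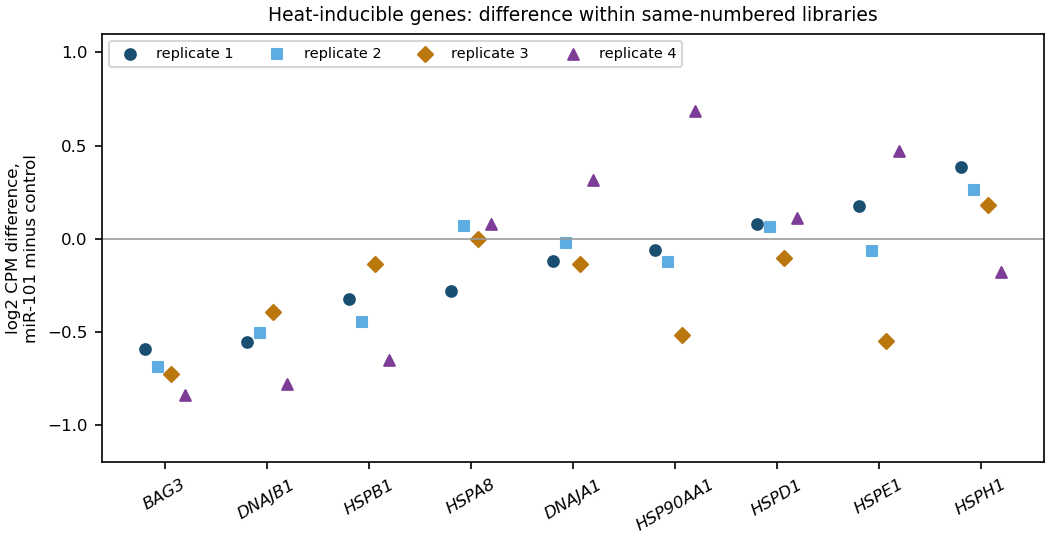
Log2 difference between the same-numbered miR-101 and control libraries (vertical axis) for each HSF1-inducible gene, with 1 point per pair. BAG3 and DNAJB1 are below 0 in 4 of 4 pairs, from -0.59 to -0.84 for BAG3, while HSP90AA1 runs from -0.52 to 0.69.

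The most abundant gene of the set was HSPA8, which clears clathrin coats and folds new proteins. It averaged 6846 ± 917 CPM in controls and 6658 ± 526 after miR-101 (SD, n = 4, edgeR adjusted p = 0.885). Corrected for exon length it stood at 1412 CPM per kilobase in controls, ahead of HSP90AB1 at 362, HSP90AA1 at 248, HSPD1 at 127, DNAJA1 at 121 and HSPA9 at 77.2. HSPB8 was the lowest at 0.629 CPM per kilobase. Reads of HSPA8 can be shared with its near-identical pseudogenes, 5 of which have rows of their own, and with snoRNA genes inside it. HSP90AB1, HSP90AA1, DNAJA1 and HSPA9 also have pseudogenes with rows of their own. Of these, HSP90AB3P, HSP90AA2P and HSPA9P1 averaged 262, 259 and 49.0 CPM in controls. The summed level of the 60 genes ran from 12990 to 15540 CPM in controls and from 13250 to 14730 after miR-101, and its ranges overlapped.

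**Figure D4:**
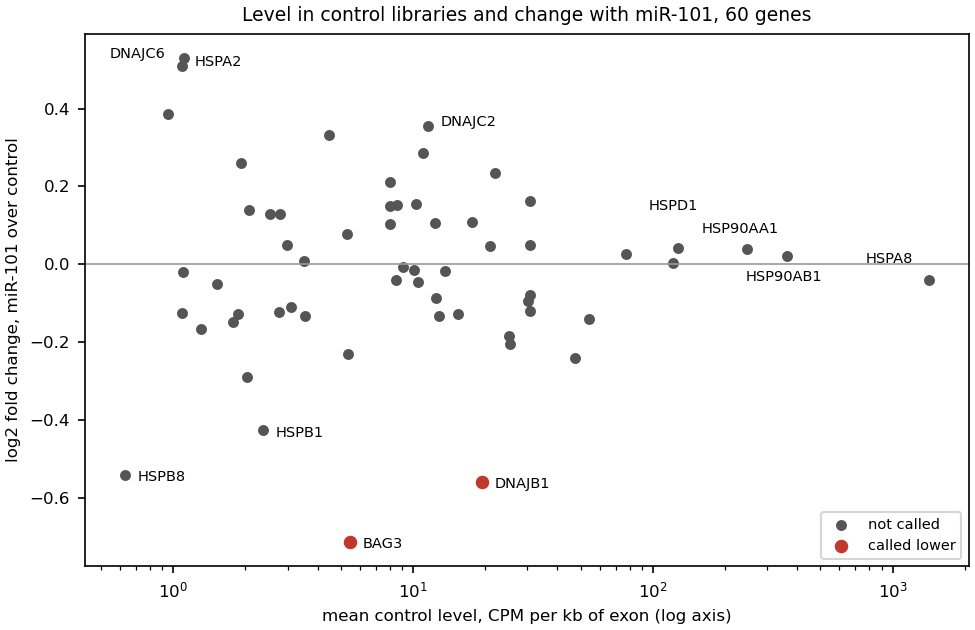
Mean control level in CPM per kilobase of exon (horizontal log axis) against log2 fold change of miR-101 over control (vertical axis) for the 60 genes. The called genes BAG3 and DNAJB1 (red) lie at 5.49 and 19.5 CPM per kilobase, while HSPA8, the highest at 1412, lies at -0.04.

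Among HSP70 genes HSPA2, best known from the testis, came nearest to a call. Its miR-101 libraries held 9.87, 9.50, 7.34 and 9.15 CPM and its controls 6.92, 5.64, 6.02 and 6.60 CPM. The groups did not overlap, and the log2 fold change was 0.51 ± 0.146 (SE, edgeR adjusted p = 0.0658), just short of the threshold. DESeq2, which called 5 of 60 chaperone genes (8.33%) beside 10.8% of all genes, placed HSPA2 past it at adjusted p = 0.0243. With replicates 1 and 2 summed HSPA2 was at 0.47 (edgeR adjusted p = 0.296). HSPA9, the mitochondrial HSP70 mortalin, averaged 637 ± 55.3 CPM in controls and 649 ± 80.0 after miR-101 (SD, n = 4). HSPA14, a subunit of the ribosome-associated complex, stood at 0.10 and HSPA12A, a distant HSP70 relative, at -0.13 (log2 fold change).

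The HSP110 family had 0 of 3 called by edgeR, with 0 at an unadjusted p under 0.05 and 0 called by DESeq2 or limma-voom. The shares over all genes were 6.62%, 22.3%, 10.8% and 6.66%. HSPH1 averaged 259 ± 43.3 CPM in controls and 290 ± 50.4 after miR-101 (SD, n = 4). HSPA4 was lower in 4 of 4 pairs, with differences from -0.27 to -0.02 on the log2 scale and a fitted value of -0.14 ± 0.108 (SE, edgeR adjusted p = 0.477). HSPA4L stood at 0.05.

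Beside BAG3, the other 4 BAG genes were not called. BAG2, which inhibits the chaperone-linked ubiquitin ligase CHIP, had 96.0, 93.7, 65.3 and 102 CPM after miR-101 and 71.0, 68.9, 76.7 and 76.4 in controls. Replicate 3 went the other way from the remaining pairs, and the fitted value was 0.29 ± 0.136 (SE, edgeR adjusted p = 0.248). BAG2 overlaps RAB23 on the other strand. BAG1, which links HSP70 to the proteasome, stood at -0.04 ± 0.106, BAG4, a silencer of death receptors, at -0.13 ± 0.127 and BAG5 at 0.05 ± 0.116 (log2, SE). BAG3 thus had the largest absolute value of the 5, and the differences between BAG genes were not tested.

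Of the 3 class A J proteins none was called by edgeR, DESeq2 or limma-voom, beside 6.62%, 10.8% and 6.66% of all genes. An edgeR unadjusted p under 0.05 was found for 1 (DNAJA4), beside 22.3% of all genes. DNAJA1, an abundant cytosolic partner of HSC70, averaged 331 ± 38.4 CPM in controls and 332 ± 27.3 after miR-101 (SD, n = 4). DNAJA4 had 7.73, 9.20, 7.39 and 8.67 CPM after miR-101 and 6.48, 5.69, 5.71 and 7.31 in controls, with every miR-101 library above every control. Its value was 0.39 ± 0.146 (SE, edgeR adjusted p = 0.148). DNAJA2 was separate in the other direction, at 143 ± 6.97 against 156 ± 4.41 CPM (SD, n = 4), but its value was only -0.12 ± 0.0866 (SE, edgeR adjusted p = 0.45).

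Among 9 class B genes DNAJB1 was the only one called. DNAJB6, which holds back polyglutamine aggregates, stood at -0.13, DNAJB5 at -0.17, DNAJB2 at 0.14 and DNAJB4 at 0.01 (log2 fold change). The ER J proteins DNAJB11 and DNAJB9 stood at 0.16 ± 0.118 and 0.15 ± 0.263 (SE). DNAJB9, a cofactor and repressor of the stress sensor IRE1, had 29.3, 26.2, 24.8 and 10.6 CPM in controls and 30.5, 26.1, 21.3 and 22.9 after miR-101. Control 4 was below all other libraries, so its same-numbered pair differed by 1.11 while the other 3 pairs lay between -0.22 and 0.05.

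Class C, the largest, had 0 of 25 called by edgeR, beside 6.62% of all genes. At an edgeR unadjusted p under 0.05 there were 3, all higher, beside 22.3% of all genes. DESeq2 called 2, beside 10.8% of all genes, and limma-voom 0, beside 6.66%. The class had 9 positive and 16 negative values and a median of -0.02. The highest was DNAJC6, auxilin, which helps HSC70 strip clathrin from vesicles. It held 10.0, 10.1, 11.0 and 13.7 CPM after miR-101 and 8.57, 7.21, 8.69 and 6.55 in controls, without overlap. The value was 0.53 ± 0.156 (SE, edgeR adjusted p = 0.0709), and DESeq2 called it at adjusted p = 0.0259. With replicates 1 and 2 summed it was 0.58 (edgeR adjusted p = 0.224).

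DNAJC2, which forms the ribosome-associated complex with HSPA14, had 98.6, 99.5, 83.8 and 107 CPM after miR-101 and 72.8, 75.2, 69.8 and 86.7 in controls. It was higher in 4 of 4 pairs, although control 4 lay above miR-101 3. The log2 fold change was 0.35 ± 0.111 (SE, edgeR adjusted p = 0.0866). With the replicate block DNAJC2 passed the threshold at edgeR adjusted p = 0.0372, without control 4 at 0.0314 and with DESeq2 at 0.0426. It did not pass with replicates 1 and 2 summed, at a value of 0.33, or in replicates 3 and 4 alone, at 0.29 (edgeR adjusted p = 0.368 and 0.857). Its exons overlap PMPCB on the other strand, which stood at 66.6 CPM in controls and 63.7 after miR-101. With the block, 3 of 60 chaperone genes were called, DNAJC2 higher and BAG3 and DNAJB1 lower, beside 10.5% of all genes.

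DNAJC25 had 15.8, 13.8, 12.8 and 15.8 CPM after miR-101 and 10.5, 11.8, 11.8 and 12.1 in controls, again without overlap (log2 fold change 0.33 ± 0.124, SE, edgeR adjusted p = 0.142). Its reads can be shared with an annotated readthrough transcript into GNG10. DNAJC9, a histone chaperone that recruits HSP70, was lower in 4 of 4 pairs, with a value of -0.20 ± 0.102 (SE, edgeR adjusted p = 0.27). It shares exons with MRPS16 on the same strand and with an antisense gene and FAM149B1 on the other strand. DNAJC3, an ER J protein that also restrains eIF2-alpha kinases, was higher in 4 of 4 pairs at 0.23 ± 0.129 (SE, edgeR adjusted p = 0.322). In all, 9 of 60 genes (15%) were higher and 6 (10%) lower in every pair. The same shares over all genes are not given here, so agreement of the pairs is a description only.

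Outside 0.25 lay also DNAJC18 at -0.29 ± 0.179, lower in 3 of 4 pairs, and DNAJC17 at 0.26 ± 0.157, higher in 4 of 4 (SE, edgeR adjusted p = 0.376 and 0.362). DNAJC17 shares exons with genes on the other strand. DNAJC13, an endosomal protein and the most abundant of the class in CPM, averaged 290 ± 13.3 in controls and 271 ± 31.8 after miR-101 (SD, n = 4). DNAJC5, the cysteine string protein of secretory vesicles, stood at -0.18, DNAJC21, a ribosome assembly factor, at -0.02, DNAJC8, a splicing-linked protein, at -0.08, and DNAJC7 at -0.04 (log2 fold change). DNAJC24, needed for the diphthamide modification of elongation factor EF2, stood at 0.13. DNAJC12 was the most variable of the class, from 1.48 to 5.11 CPM in controls and 2.45 to 4.61 after miR-101.

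The HSP90 genes were not called. HSP90AB1, the constitutive form, averaged 1079 ± 157 CPM in controls and 1094 ± 105 after miR-101 (SD, n = 4, log2 fold change 0.02 ± 0.125, SE). HSP90AA1, the inducible form, had 1262, 1214, 1495 and 1228 CPM in controls and 1209, 1111, 1043 and 1976 after miR-101. One library of each group stood high, control 3 and miR-101 4, and the log2 fold change was 0.04 ± 0.19 (SE, edgeR adjusted p = 0.932), or -0.22 without miR-101 4.

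The same libraries were the highest of their groups for some other genes. HSPE1, the HSP10 lid of the mitochondrial chaperonin, had 88.3 CPM in miR-101 4 against 45.1 to 63.9 in the other miR-101 libraries. In control 3 it had 66.0 CPM, close to the 56.5 to 63.8 of the other controls. DNAJC19, a part of the mitochondrial import motor, had 46.5 CPM in miR-101 4 and 53.6 in control 3, and 25.1 to 36.5 in the other 6. Its pseudogene DNAJC19P9, with which reads can be shared, had 24.1 CPM in miR-101 4 and 27.6 in control 3. HSPB11 had 78.5 and 75.6 CPM in those libraries and 42.1 to 60.9 elsewhere. miR-101 4 and control 3 also had the lowest TMM normalisation factors, 0.922 and 0.915. The part of these libraries' composition in the values was not tested, and none of these genes was called.

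The chaperonin pair HSPD1 and HSPE1, HSP60 and its lid, are neighbours that share exon sequence on opposite strands. HSPD1 averaged 540 ± 17.8 CPM in controls and 556 ± 52.4 after miR-101 (SD, n = 4), and its value was 0.04 ± 0.0989 (SE, edgeR adjusted p = 0.844). Of the 8 listed mitochondrial genes 7 were tested, with a median of -0.02. Of these, 0 were called by edgeR, 0 had an unadjusted p under 0.05 and 0 were called by DESeq2 or limma-voom. The shares over all genes were 6.62%, 22.3%, 10.8% and 6.66%. DNAJC11, linked to cristae organisation, stood at -0.09 and DNAJC30 at -0.12 (log2 fold change).

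The 9 ER genes had a median of 0.08, with 5 positive, 4 negative and 0 called by edgeR, by limma-voom or by DESeq2. At an unadjusted p under 0.05 there were also 0. Over all genes edgeR called 6.62%, limma-voom 6.66% and DESeq2 10.8%, and 22.3% had an edgeR unadjusted p under 0.05. The summed level of the 9 ER genes was 765, 732, 801 and 607 CPM in controls 1 to 4 and 775, 750, 730 and 722 after miR-101. Control 4 was the lowest of the 8. DNAJC18 at -0.29, HSPA13 at -0.24 and DNAJB12 at -0.23 were the most negative, and DNAJC3 at 0.23 the most positive (log2 fold change).

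RNA counts of the small HSP genes HSPB1 and HSPB8 were low in these libraries. HSPB1 (HSP27), which caps actin and holds unfolded proteins, had 3.19, 3.92, 3.29 and 5.16 CPM in controls and 2.52, 2.85, 2.99 and 3.25 after miR-101. It was lower in 4 of 4 pairs, with overlap between the groups, at -0.43 ± 0.196 (SE, edgeR adjusted p = 0.231). HSPB8, the partner of BAG3, had 1.70, 1.88, 1.37 and 2.25 CPM in controls and 1.93, 1.70, 0.538 and 0.813 after miR-101, so only replicates 3 and 4 were far apart (-0.54 ± 0.36, SE, edgeR adjusted p = 0.411). HSPB11, in spite of its symbol an intraflagellar transport protein, stood at 0.11.

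Other chaperone genes were taken from a list by role, and 0 of the 64 tested of 69 listed were called by edgeR, while 9 had an unadjusted p under 0.05 (5 higher, 4 lower), against the 22.3% over all genes. DESeq2 called 4 of the 64 (6.25%), AHSA2 and FNIP2 higher and PFDN1 and SEC63 lower, beside its 10.8% of all genes. The replicate block called 2 lower, PFDN1 and GRPEL2, beside 10.5% of all genes. Limma-voom called 0 of them and 6.66% of all genes. With replicates 1 and 2 summed edgeR called 0 of the 64, and 5 had an unadjusted p under 0.05. Among 19 genes listed as HSP90 co-chaperones AHSA2, related to the HSP90 activator AHA1, stood highest at 0.39 ± 0.107 (SE, edgeR adjusted p = 0.0586). AHSA2 is annotated as a transcribed unitary pseudogene, and it was kept in this list although pseudogenes were set aside from the main set. Its exons overlap USP34 on the other strand. FNIP2, which slows the HSP90 ATPase, was at 0.35 ± 0.109 (SE, edgeR adjusted p = 0.0867).

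Among 14 tested genes of the cytosolic chaperonin TRiC and its partner prefoldin, 5 were positive and 9 negative. PFDN1, a prefoldin subunit, had 33.8, 32.2, 32.8 and 51.2 CPM in controls and 24.1, 25.4, 26.3 and 27.4 after miR-101, with separate groups (log2 fold change -0.54 ± 0.155, SE, edgeR adjusted p = 0.0659). Control 4 stood far above the other controls, and without it the value was -0.35 (edgeR adjusted p = 0.0433). With replicates 1 and 2 summed it was -0.58 (edgeR adjusted p = 0.223). PDCL3 was at -0.34 ± 0.15 (SE, edgeR adjusted p = 0.206).

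Of 13 ER chaperones 12 were positive, with a median of 0.12. By edgeR 0 were called, beside 6.62% of all genes. An unadjusted p under 0.05 was found for 3 (2 higher, 1 lower), beside 22.3% of all genes. SEC63, the J protein of the translocon, was the exception at -0.30 ± 0.098 (SE, edgeR adjusted p = 0.1), and P4HB, a protein disulfide isomerase, stood at 0.29 ± 0.116 (SE, edgeR adjusted p = 0.174). The summed level of this list was 5603, 5324, 4629 and 3869 CPM in controls and 5991, 6263, 5020 and 4882 after miR-101, and control 4 was again the lowest. In the mitochondrial list of 12, the exchange factors GRPEL2 and GRPEL1 stood at -0.41 ± 0.133 and 0.18 ± 0.102 (SE, edgeR adjusted p = 0.1 and 0.344). Among 6 tested of 10 other factors, ST13, the HSP70-interacting protein HIP, was at 0.21 ± 0.09 and HSF4 at 0.57 ± 0.277 (SE, edgeR adjusted p = 0.197 and 0.26).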

How the data were processed

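RNA from 8 libraries (4 miR-101, 4 control) was sequenced after Ribo-zero Gold depletion, per the labels. The deposited values are read counts per gene symbol, not normalised. The submitters' processing notes list StringTie 1.2.4, TopHat2 2.0.14, the converter bcl2fastq 2.18.0.12 and the hg38 build. How these made the counts, with which annotation and strand setting, is not given in the sources used here.

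All counts were fitted with edgeR 4.0.16 (R 4.3.3, limma 3.58.1) using filterByExpr, TMM and the quasi-likelihood test with group as the only term. Benjamini-Hochberg adjustment ran over 15905 genes, and a call is an adjusted p under 0.05. SE is the absolute log2 fold change over the square root of F. CPM use TMM-adjusted library sizes and were divided by the GENCODE 29 exon length of the gene for levels per kilobase. The procedure was tested on simulated data. Alternatives were DESeq2 1.42.0, limma-voom, other normalisation and filters, the replicate block and other sets of libraries.

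The sources used here give no pairing of libraries, and pairs were formed by replicate number. Same-numbered libraries deviated together from their group means (r = 0.439, 0.629, 0.226 and 0.218 over 11502 genes). But miR-101 1 correlated best with control 2 and miR-101 4 with control 3. Whether the numbers pair the libraries is therefore uncertain, and so are values by pair and with the replicate block.

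Members and lists were chosen with earlier results of these data known. Named by rule were called members, the next 10 by p, the 8 most abundant, the HSF1-inducible list, HSF and BAG genes, any with an 8mer, EZH2, and the 2 companion genes with the smallest p in each list; others are named to describe a class and were chosen after their values were seen. Limiting 3′ UTRs to protein-coding transcripts was decided after sites had been seen. Symbols matched GENCODE 29 for 14382 of 15982 genes. Planned comparisons of protein sequences were not made.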

Additional observations from a re-analysis of the deposited data

Results flagged for a closer look

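Among 37 named genes, 74 groups of 4 libraries were screened for a library far from the others, and 4 stood out. Chance gives about 1 in 20 groups. HSP90AA1 had 1495 CPM in control 3, above the 1214 to 1262 of the other controls. DNAJC13 had 269.5 CPM in control 3, below the 295.5 to 296.8 of the others. PFDN1, a prefoldin subunit, had 51.24 CPM in control 4, above 32.18 to 33.84. GRPEL1, the mitochondrial HSP70 exchange factor, had 72.81 CPM in miR-101 4, above 58.16 to 59.77.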

How the results depend on the processing

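BAG3 and DNAJB1 remained the lower calls under the other normalisation, both other filters, the robust fit, DESeq2, limma-voom, the replicate block and each fit without 1 library. The number of lower members was 0 with replicates 1 and 2 summed, where 4 members had an unadjusted p under 0.05 and 1.09% of all genes were called, 7 in replicates 1 and 2 alone, where 32.4% were, and 0 in replicates 3 and 4 alone, where 4 members had an unadjusted p under 0.05 and 6 genes in all were called. Without 1 library it was 2 to 2. Higher members went from 0 to 1 with the replicate block (DNAJC2), 3 with DESeq2 (5 of 60 in both directions, 8.33%, beside 10.8% of all genes) and 8 in replicates 1 and 2 alone, and from 0 to 1 without 1 library (DNAJC2, without control 4). Higher companion genes went from 0 to 1 with at least 5 CPM in 4 libraries, 2 with DESeq2 and 12 in replicates 1 and 2 alone, and from 0 to 1 without 1 library (AHSA2, without control 4). Lower companion genes went from 0 to 2 with the replicate block, 2 with DESeq2 and 5 in replicates 1 and 2 alone, and from 0 to 1 without 1 library (PFDN1 without control 4, GRPEL2 without miR-101 4). The block changed no other call among the members. The causes were not tested.

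Of 664 gene and setting pairs over 37 named genes, 597 kept direction and call, 30 gained and 6 lost a call (BAG3, DNAJB1 and EZH2, with replicates 1 and 2 summed and in replicates 3 and 4 alone), and 31 changed sign, all of them in genes not called. HSP90AA1 was -0.00758 with the replicate block and -0.00568 with limma-voom, and HSPA9 was -0.00571 with replicates 1 and 2 summed. Without 1 library the log2 fold change ran from -0.116 to 0.0401 for HSPA8, -0.22 to 0.137 for HSP90AA1, -0.0465 to 0.12 for HSP90AB1, -0.0363 to 0.104 for HSPA9, -0.0087 to 0.101 for HSPD1, -0.0655 to 0.0607 for DNAJA1, -0.167 to 0.175 for HSPE1, -0.217 to 0.0159 for HSF1, -0.0871 to 0.0336 for BAG1 and -0.0438 to 0.0979 for BAG5. In replicates 1 and 2 alone HSP90AA1 was -0.0994, HSP90AB1 was -0.0214, DNAJA1 was -0.0785, HSF1 was 0.0291 and BAG5 was -0.0299. In replicates 3 and 4 alone HSPA8 was 0.0374, HSPA9 was -0.0722 and HSPH1 was -0.0239. Errors were largest for HSPB8 (SE 0.36) and DNAJC12 (SE 0.352), at control levels of 1.80 and 3.75 CPM.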
